A study of Mus musculus with 53 samples.

Results

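Tal1, Lyl1, Lmo1, Lmo2, Lmo4, Ldb1 and Hhex are 7 mouse genes grouped here around the TAL1/LMO transcription complex. They were picked by name, and every probe set that the platform's gene table assigns to one of them alone was taken. Each gene had 1 such probe set, so 7 of the 22626 probe sets that are not array controls are described, out of 12393 genes named by a single symbol.

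RNA from T-cell lymphomas was measured on 53 arrays, and the mice had 15 genetic backgrounds that give rise to such tumours. Every sample was labelled C57BL/6, no treatment was given, and neither ages nor normal thymus are described here. Tumours came from mice carrying a transgene for Tal1 (2 arrays), Tal1 with LMO2 (3), LMO1 (3) or LMO1 with Olig (3; the genotype label names Olig1 and the sample titles Olig2). E2A knockout mice gave 2 arrays and mice lacking both Rag and E2A gave 2. The crossed background, TLX1 transgenic and heterozygous for RUNX, gave 6 arrays, and the TLX1 transgenic background gave 6. The other backgrounds were beta-catenin (3), NUP98-HOXD13 (3), Pokemon (2) and ThPOK (3) transgenic, Ikaros plastic (3), Cdkn2a knockout with retroviral insertional mutagenesis (9) and p53 knockout (3). Only the TLX1 transgenic samples carry a TLX1-positive status label, while the crossed samples, whose genotype names the transgene, have a negative status. The labels give neither the promoter of any transgene nor its species of origin, and nothing says that arrays of a background came from separate animals. Spread between arrays of a background may therefore be technical, and the p-values measure no more than that spread.

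In blood cells TAL1, a class II basic helix-loop-helix factor, pairs with an E protein such as E2A (gene Tcf3) and binds CANNTG motifs (E boxes) in DNA. LMO proteins bind no DNA themselves. They bridge the TAL1 pair to GATA factors and to LDB1, an adaptor that dimerises and holds the complex together. LYL1 is a close relative of TAL1 that can use the same partners, and HHEX is a homeobox factor known in mouse as a downstream gene of Lmo2 in thymocytes. TAL1, LYL1, LMO1 and LMO2 are known as oncogenes of T-cell leukaemia when they are switched on in thymocytes. Maturing thymocytes normally lose TAL1, LYL1 and LMO2. Tal1, Lyl1 and Lmo2 are active in blood stem cells, in red-cell and myeloid precursors and, with Hhex, in the lining cells of blood vessels.

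All levels are log2 values of the intensities that the authors deposited, and array medians lay between 8.56 and 9.20 on that scale (377 to 590 in intensity). Levels of different probe sets are not compared with each other, because probe sets differ in brightness per molecule. Position relative to an array's own median is given instead. Differences were tested with limma in 1 model of all 53 arrays, as a background's mean minus the mean of the other 14 background means, with Benjamini-Hochberg adjustment over all 22626 probe sets and a threshold of 0.05. "Rose" and "fell" mark differences past it.

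A pair of arrays stood apart in markers of other cell types. The array of p53 knockout replicate 2 had the lowest mean of 8 T cell markers, 9.36 against 10.45 to 12.45 on the other 52 arrays. Its mean of 8 endothelial markers was 11.41, against 8.0 to 9.46 elsewhere. Its means of erythroid (9.56), early progenitor (9.67) and megakaryocyte markers (9.42) were also the highest of all arrays. Its myeloid mean was 10.43, against 8.79 to 11.01 elsewhere, and its B cell mean 9.30, against 7.82 to 9.75. Kdr, an endothelial growth factor receptor, read 12.67 there and at most 10.14 on any other array, and Cd3g, a T cell receptor subunit, read 7.84 against at least 11.28. This array goes against the labelled cell type, so each p53 result is given with and without it. Crossed replicate 1 had the highest mean of 9 myeloid markers, 11.01 against 8.79 to 10.85, and the second lowest T cell mean, 10.45. Mpo, the peroxidase of granulocytes, read 13.34 on it and at most 10.92 elsewhere. Not every listed myeloid gene was high there, as Csf1r read 10.41 on it, below the median of 11.25 on the others. These are bulk samples, in which fewer cells of a type and less RNA per cell cannot be told apart.

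Control probe sets also split the arrays. By 27 bacterial spike-in probe sets, the 6 crossed arrays form a set of their own and the 6 TLX1 arrays share a set with p53 knockout replicates 1 and 2. The mean of 18 hybridization controls was 12.16 to 12.77 on the 9 E2A, Rag-E2A, Tal1 and Tal1-LMO2 arrays, against 9.19 to 12.19 on the other 44. The log2 ratio of the 3′ over the 5′ beta-actin control differed between backgrounds too. It was 0.79 to 2.17 in TLX1, 0.57 to 0.88 in crossed, 0.57 to 1.08 in Tal1 and 0.27 to 1.53 in p53 knockout tumours. In beta-catenin and Olig-LMO1 tumours it was 0.04 to 0.10 and 0.07 to 0.21. With it as a covariate, calls were lost for Lmo2, Hhex and Tal1 in p53 knockout tumours. The same held for Lmo1 in NUP98-HOXD13 and Tal1 tumours.

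Promoter sequences show how far the motifs of the complex occur at the members' own starts. They come from RefSeq, build GRCm38.p6, and run from 250 bases before to 50 after a transcript start. The table holds 6 of the 7 members. Those of Lyl1, Hhex and Tal1 are printed because the results below turn on these genes. They are given 5′ to 3′ on the gene's strand, with matches to CANNTG and to GATAA (the GATA factor motif) on either strand in capitals.
Lyl1, chr8:84701207-84701506, plus strand: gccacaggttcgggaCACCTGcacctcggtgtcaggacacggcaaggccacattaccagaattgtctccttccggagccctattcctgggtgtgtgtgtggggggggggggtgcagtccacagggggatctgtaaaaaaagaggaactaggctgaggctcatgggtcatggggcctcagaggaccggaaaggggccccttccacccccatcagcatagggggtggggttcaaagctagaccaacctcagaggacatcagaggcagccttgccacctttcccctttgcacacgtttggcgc
Hhex, chr19:37434591-37434890, plus strand: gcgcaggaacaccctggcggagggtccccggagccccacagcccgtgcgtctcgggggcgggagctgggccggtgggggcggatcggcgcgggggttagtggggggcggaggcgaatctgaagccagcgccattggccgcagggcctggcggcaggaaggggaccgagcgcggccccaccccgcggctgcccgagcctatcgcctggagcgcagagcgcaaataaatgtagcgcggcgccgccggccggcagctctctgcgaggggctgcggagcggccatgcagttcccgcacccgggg
Tal1, chr4:115056176-115056475, plus strand: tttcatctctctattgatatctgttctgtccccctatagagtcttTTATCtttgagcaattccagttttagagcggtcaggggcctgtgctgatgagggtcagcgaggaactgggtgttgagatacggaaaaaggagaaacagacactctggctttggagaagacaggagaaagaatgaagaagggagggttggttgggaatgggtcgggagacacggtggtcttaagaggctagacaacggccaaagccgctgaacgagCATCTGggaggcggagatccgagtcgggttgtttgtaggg
The Lyl1 window holds 1 CANNTG match, at position -235 from the start, and no GATAA. The Hhex window holds neither. This Tal1 window holds 1 of each, while the window at a second Tal1 start holds neither. Across 32851 mouse promoters of the same length, 72.31% hold a CANNTG and 25.41% a GATAA. A match is a description of the letters and not a measured binding site.

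The members fell into levels that varied little and levels that varied widely (plot of the 7 genes by background). Ldb1, the adaptor, was above the array median on 53 of 53 arrays, and its background means spanned 0.68. Lmo4, an LMO protein that also binds LDB1, was above it on 50 arrays and its background means spanned 2.26. Lmo2 was above the median on 19 arrays, Lyl1 on 13, Lmo1 on 9, Hhex on 2 and Tal1 on none. The span of background means was 5.62 for Lmo1, 2.91 for Lyl1, 1.94 for Lmo2, 0.95 for Tal1 and 0.81 for Hhex. When the 15 backgrounds were ordered by mean, the arrays of neighbouring backgrounds overlapped in 14 of 14 neighbour pairs for Lyl1, Lmo4 and Ldb1, in 13 for Tal1 and Lmo2 and in 12 for Lmo1 and Hhex.

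**Figure D1:**
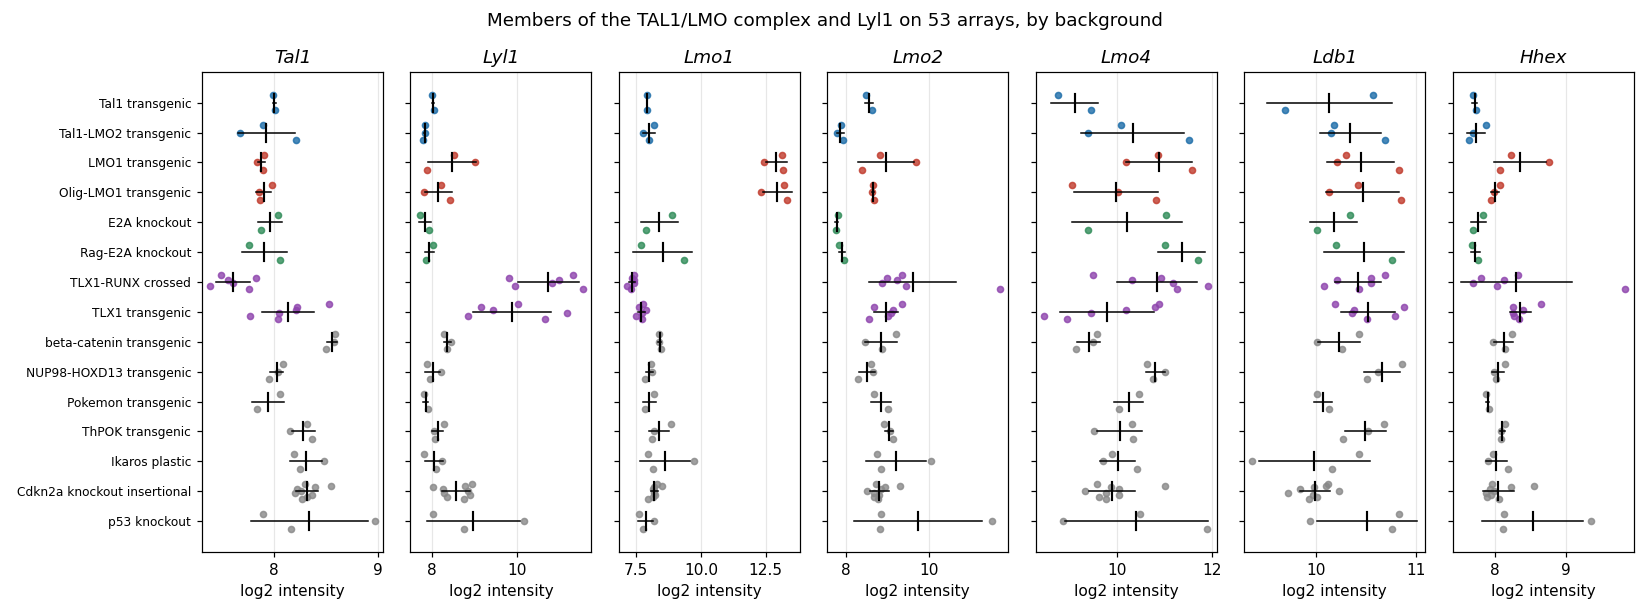
Level of each gene (log2 intensity, horizontal axis, its own range in each panel) on each of 53 arrays, by background. Points are arrays, vertical ticks are background means and horizontal lines are ±1 SD. Lmo1 lies between 12.32 and 13.34 in the LMO1 and Olig-LMO1 backgrounds and at or below 9.72 elsewhere, and Lyl1 is highest in the crossed and TLX1 backgrounds.

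The transgenes themselves were examined first. Lmo1, the LIM-only protein encoded by the LMO1 transgene, rose in both LMO1 backgrounds. It read 13.16, 12.44 and 13.13 in LMO1 tumours and 13.34, 12.32 and 13.19 in Olig-LMO1 tumours. No other array exceeded 9.72. The background means were 12.91 ± 0.41 (SD, n = 3) in LMO1 and 12.95 ± 0.55 (n = 3) in Olig-LMO1 tumours. The 2 backgrounds together lay 4.83 ± 0.17 (SE) above the other 13, a 28.4-fold difference (limma, adjusted p = 1.42e-24), and their 6 arrays did not overlap with the other 47. Lmo1 was 1 of 7 members called in that comparison, in which 36.5% of all probe sets were called in either direction. Olig-LMO1 and LMO1 tumours did not differ detectably in Lmo1 (difference 0.04, 95% interval -0.58 to 0.66), nor in any other member. In that pair 0 of 7 members and 0.407% of all probe sets passed.

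Outside the LMO1 backgrounds Lmo1 was lower on every array. Ikaros plastic tumours read 8.15, 9.72 and 7.94, and Rag-E2A knockout tumours 9.33 and 7.70. E2A knockout tumours read 7.88 and 8.89, and ThPOK transgenic tumours 8.11, 8.19 and 8.83. These 4 groups hold the highest values outside the LMO1 backgrounds. Against a mean that includes both LMO1 backgrounds, Lmo1 was called lower in 7 backgrounds. With those 6 arrays left out, the lower call held in crossed (-0.83, adjusted p = 2.42e-05) and TLX1 tumours (-0.43, 0.0223) and was lost in Tal1, Tal1-LMO2, NUP98-HOXD13 and p53 knockout tumours. Cdkn2a knockout tumours then turned to a difference of 0.11 (adjusted p = 0.521). Lmo1 read 7.15 to 7.43 in the 6 crossed tumours and 7.5 to 7.87 in the 6 TLX1 tumours, which do not overlap. Yet Lmo1 was not called in the direct comparison of these backgrounds, given below. The share of all probe sets that separate there was not counted. In TLX1 tumours the Lmo1 call was lost with array set as a block (-1.58, adjusted p = 0.076).

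Tal1, the helix-loop-helix factor, was not raised in tumours labelled with a Tal1 transgene. It read 8.01 and 7.99 in Tal1 tumours and 8.21, 7.67 and 7.89 in Tal1-LMO2 tumours. These values lie inside the range of the other 48 arrays, 7.38 to 8.97. The differences were -0.08 in Tal1 tumours (limma, adjusted p = 0.852) and -0.16 in Tal1-LMO2 tumours (adjusted p = 0.457). Lmo2, the bridging protein whose transgene Tal1-LMO2 mice carry, read 7.93, 7.77 and 7.87 in Tal1-LMO2 tumours, against 8.63 and 8.48 in Tal1 tumours. Lmo2 was the lower in the tumours labelled with the LMO2 transgene, but the difference did not pass (-0.70, 95% interval -1.77 to 0.37, adjusted p = 0.899). The arrays do not overlap, but with 3 arrays against 2 this carries little weight. The share of all probe sets that separate in this way was not counted. In that pair 0 of 7 members and 0.292% of all probe sets were called. The probe sets are built on mouse transcripts, and the labels do not say whether the Tal1 and LMO2 transgenes are human or mouse or which part of the transcript they keep. The levels of Tal1 and Lmo2 therefore do not check these labels, and whether human transcripts went unread was not tested. The Lmo1 probe set did read higher in both LMO1 backgrounds.

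LMO1 and Tal1 transgene backgrounds were then compared directly. Lmo1 was the 1 member called of 7, at 12.93 in the LMO1 backgrounds and 7.96 in the Tal1 backgrounds (difference 4.97 ± 0.23, adjusted p = 7.65e-20), where 21.8% of all probe sets were called. Hhex, the homeobox factor, read 7.95 to 8.77 in the 6 LMO1 and Olig-LMO1 tumours, against 7.64 to 7.87 in the 5 Tal1 and Tal1-LMO2 tumours. The arrays do not overlap, but the difference of 0.45 ± 0.22 did not pass (adjusted p = 0.131). How many of all probe sets separate in this way was not counted. Lmo2 differed by 0.60 (95% interval -0.12 to 1.32, adjusted p = 0.238) and Lyl1 by 0.38 (-0.26 to 1.03, adjusted p = 0.427).

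The 4 backgrounds with a Tal1 or LMO transgene were pooled and set against the other 11. In this comparison 2 of 7 members and 32.3% of all probe sets were called. Lmo1 rose by 2.32, carried by the LMO1 arrays. Tal1 fell by 0.20 (adjusted p = 0.0258), a call lost with quantile normalization (adjusted p = 0.267), with arrays centred on their medians (0.168), with array set as a block (0.321), with that block and p53 knockout replicate 2 also left out (0.0895), and without Tal1 replicate 1, Tal1 replicate 2 or Tal1-LMO2 replicate 2 (0.0561 to 0.0708). Lyl1 lay 0.46 lower and missed the threshold (adjusted p = 0.0504).

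Genes around the complex were counted by lists. Of 20 measured complex partners, 4 rose and 2 fell in the 4 Tal1 and LMO backgrounds, with a median difference of 0.08 against -0.05 over all probe sets, of which 8.22% rose and 24.1% fell. The E2A gene Tcf3 rose by 0.32 (adjusted p = 0.0154) and Ssbp3, which stabilises LDB1, by 0.39 (0.00781). The reference mean of Tcf3 holds both E2A-deficient backgrounds, in which Tcf3 fell, as given below. The Tcf3 difference without them was not tested. Runx1 fell by 0.39 (0.0012). Of 11 measured target genes of TAL1 and LMO, 1 rose and 2 fell. Klf1, a red-cell factor, rose by 0.33 (0.000451) and Aldh1a2, a retinoic acid synthase, fell by 0.60 (0.00193). Kit and Nfe2, also on that list, did not pass.

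E protein targets were counted in both kinds of transgene background. In the LMO1 backgrounds 4 of 9 measured genes rose and none fell, with a median difference of 0.75 against -0.09 over all probe sets, of which 7.69% rose and 28.8% fell. Ptcra, the pre-T receptor chain, rose by 1.57 (adjusted p = 0.00423). Rag1 and Rag2, the recombinase of receptor genes, rose by 1.5 (0.0176) and 1.0 (4.3e-05), and the coreceptor gene Cd4 by 0.69 (0.0114). The reference holds crossed tumours, in which 6 of these 9 fell, and Rag-E2A knockout tumours, from mice lacking Rag. The list's difference without them was not tested. The mean of the 9 genes was 11.10 to 11.72 on the 6 LMO1 and Olig-LMO1 arrays and 9.16 to 11.69 on the other 47. Pokemon tumours, at 11.22 and 11.28, lie inside the LMO1 range. In the Tal1 backgrounds, where 15.5% of all probe sets were called, none of the 9 rose and 2 fell (9.31% and 6.20% of all). Id3, an inhibitor of E proteins, fell by 1.56 (0.00498) and Cd4 by 0.86 (0.0118). In the direct comparison of LMO1 with Tal1 backgrounds, 3 of the 9 were higher in LMO1, namely Id3 by 2.07 (0.00193), Cd4 by 1.34 (0.00109) and Rag2 by 0.88 (0.00945), and the other 6, Ptcra and Rag1 among them, did not pass, where 5.48% of all probe sets were higher and 16.3% lower. Cell type markers moved in these comparisons too. In the LMO1 backgrounds 2 of 6 B cell markers rose, Cd79a (0.72, 0.0179) and Cd79b (0.94, 0.00302), and 1 fell, Pax5 (-0.17, 0.000734), while 0 of 8 T cell markers passed. There 1 of 9 myeloid, 3 of 8 early progenitor and 2 of 5 megakaryocyte markers also fell and none of these rose, and of 6 erythroid markers 1 rose and 1 fell. In the Tal1 backgrounds 3 of 9 myeloid, 2 of 8 endothelial, 1 of 6 B cell and 1 of 8 T cell markers fell and none rose, the last being Cd5 (-1.35, 0.013). The part of these markers in the result was not tested. Of the 7 members, only Lmo1 fell in the Tal1 backgrounds (-0.91, adjusted p = 0.00058), against a mean that holds the LMO1 arrays; without them the difference was -0.17 (adjusted p = 0.535).

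**Figure D2:**
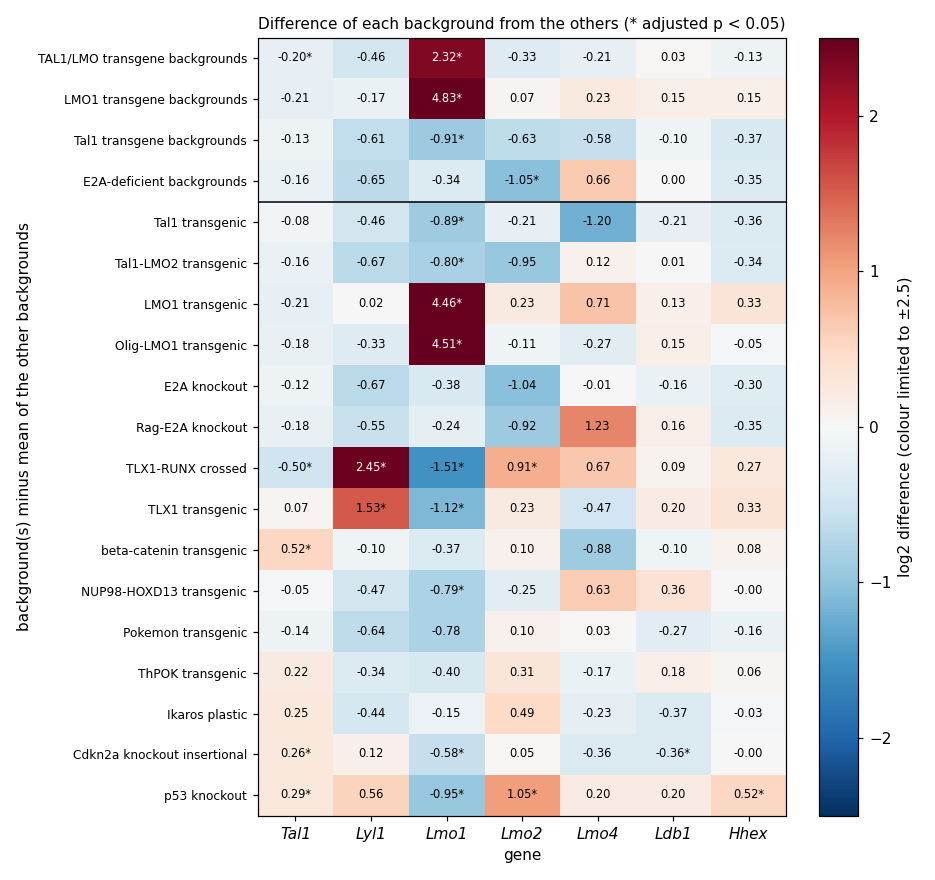
Difference of each background, or pooled backgrounds above the line, from the mean of the other backgrounds for the 7 genes (log2, colour limited at ±2.5; an asterisk marks an adjusted p under 0.05). Lmo1 stands out in the LMO1 rows (4.46 and 4.51) and Lyl1 in the crossed and TLX1 rows (2.45 and 1.53). In those crossed and TLX1 rows Lmo1 is -1.51 and -1.12. Lmo2 is -1.05 in the E2A-deficient row and 1.05 in the p53 knockout row.

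Lmo2 was low in tumours without E2A, the E protein partner of TAL1. It read 7.75 and 7.80 in E2A knockout tumours and 7.95 and 7.84 in Rag-E2A knockout tumours. Together with the 3 Tal1-LMO2 arrays these are the 7 lowest of 53, and the other 46 arrays lie between 8.29 and 11.71. The E2A-deficient backgrounds together averaged 7.84, against 8.89 for the mean of the others, so Lmo2 fell by 1.05 ± 0.30 (limma, adjusted p = 0.021). It was the 1 member called of 7 in a comparison where 10.5% of all probe sets were called. Leaving out any of the 4 arrays (E2A knockout replicate 1 or 2, Rag-E2A knockout replicate 3 or 4) lifted the adjusted p to between 0.0828 and 0.11, with differences of -1.08 to -1.02. Taken singly, E2A knockout (-1.04, adjusted p = 0.223), Rag-E2A knockout (-0.92, 0.226) and Tal1-LMO2 tumours (-0.95, 0.102) did not pass. No member was called in E2A or Rag-E2A knockout tumours alone, where 1.96% and 2.23% of all probe sets were called. In Tal1-LMO2 tumours 1 of 7, Lmo1, was called, against 4.52% of all probe sets, and in Tal1 tumours likewise 1 of 7, Lmo1, against 4.89%. Both Lmo1 calls were lost without the LMO1 arrays.

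Other measures moved with Lmo2 on these arrays. The mean of 9 myeloid markers was 8.79 to 9.22 on the 7 low arrays, against 9.37 to 11.01 on the other 46, and their summed intensity was 5106 to 7466 against 9053 to 37868. The mean of 8 endothelial markers was 8.0 to 8.20 against 8.29 to 11.41. In the E2A-deficient backgrounds 5 of 9 myeloid markers fell and none rose, led by Lyz2 (-1.44, adjusted p = 6.91e-05) and Cd68 (-1.32, 9.36e-05). There 2 of 8 endothelial, 1 of 6 B cell and 1 of 5 megakaryocyte markers also fell and none rose, against 4.73% higher and 5.79% lower of all probe sets. No T cell, erythroid or early progenitor marker passed. None of these markers is listed at 0. T cell markers overlapped, at 11.50 to 12.22 on the 7 arrays and 9.36 to 12.45 on the others. The hybridization controls were also high on these arrays, as given above. Within the array set of high hybridization controls, the 8 remaining arrays had Lmo2 at 8.48 to 11.51, above the 7. With that set as a block or that level as a covariate the E2A-deficient difference kept its call. The part of the myeloid and endothelial RNA in the Lmo2 result was not tested.

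Hhex and Lyl1 were low on the arrays low in Lmo2 and also on the Tal1 arrays, though some other arrays reached the same levels. Hhex read 7.64 to 7.87 on the 9 E2A, Rag-E2A, Tal1 and Tal1-LMO2 arrays, against 7.70 to 9.84 on the other 44. Lyl1 read 7.73 to 8.04 on those 9 arrays, against 7.81 to 11.55 on the others, with Pokemon tumours at 7.81 and 7.90. Neither passed in the E2A-deficient backgrounds (Hhex -0.35, adjusted p = 0.219; Lyl1 -0.65, adjusted p = 0.116) or in the Tal1 backgrounds (Hhex -0.37, adjusted p = 0.133; Lyl1 -0.61, adjusted p = 0.0939). Lmo4 lay 0.66 higher in the E2A-deficient backgrounds and did not pass (adjusted p = 0.287). Among complex partners, Tcf3 itself fell by 0.85 in the E2A-deficient backgrounds (adjusted p = 0.000252), and which part of the gene is deleted is not given in the labels. Its relative Tcf4 fell by 0.51 (0.041), Tal2, a TAL1 relative, fell by 0.35 (0.00351) and Ssbp4 rose by 0.77 (0.000489). Those were 1 gene higher and 3 lower of 20, against 4.73% higher and 5.79% lower of all probe sets. None of 11 TAL1 and LMO targets passed, and of 9 E protein targets Notch1 rose (1.45, 0.0395).

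**Figure D3:**
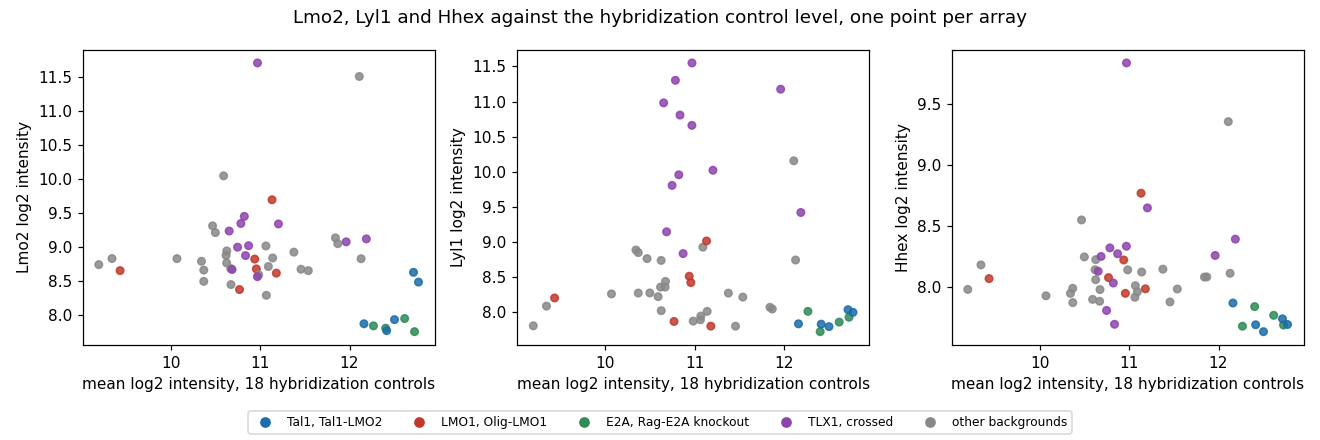
Lmo2, Lyl1 and Hhex (log2 intensity, vertical axes) against the mean of 18 hybridization control probe sets (log2 intensity, horizontal axes), 1 point per array, coloured by background. The 9 E2A-deficient and Tal1 arrays lie at 12.16 to 12.77 on the horizontal axis, and all but the 2 Tal1 arrays have Lmo2 at or below 7.95.

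Lyl1, the relative of TAL1, was the member that differed most outside the transgenes. In crossed tumours it read 9.81 at the lowest, 10.89 at the median and 11.55 at the highest. TLX1 tumours read 8.84, 9.72 and 11.18 at those points. The other 41 arrays read 7.73 to 10.16 with a median of 8.09. All 12 TLX1 and crossed arrays thus lie above the median of the others, but the ranges overlap. TLX1 replicate 3 (8.84) lies below p53 knockout replicate 2 (10.16), LMO1 replicate 2 (9.02) and Cdkn2a knockout replicates 3, 5 and 9 (8.89, 8.85 and 8.93). The 6 crossed arrays overlap with p53 knockout replicate 2 alone among those 41. Lyl1 rose by 2.45 ± 0.23 in crossed tumours (5.45-fold, adjusted p = 2.68e-12) and by 1.53 ± 0.23 in TLX1 tumours (2.88-fold, adjusted p = 3.66e-07).

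These comparisons are broad ones. In crossed tumours 4 of 7 members were called, against 66.9% of all probe sets, and in TLX1 tumours 2 of 7 against 55.7%. The crossed arrays form their own set of spike-in controls, so set and background cannot be told apart there. TLX1 arrays share their set with 2 p53 knockout arrays, which read 8.75 and 10.16 for Lyl1. With the set as a block the TLX1 difference was 0.35 (adjusted p = 0.8), and with p53 knockout replicate 2 also left out it was 1.05 (adjusted p = 0.575), where the lone p53 array of the set is assumed to vary like the other groups. In TLX1 tumours 4 of 8 early progenitor markers rose and 1 fell, and 3 of 8 endothelial, 3 of 6 B cell, 2 of 6 erythroid, 2 of 5 megakaryocyte and 1 of 8 T cell markers rose with none lower, against 31.9% higher and 23.8% lower of all probe sets. Of 9 myeloid markers 2 rose and 1 fell. The part of these markers in the Lyl1 result was not tested.

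Crossed and TLX1 tumours, both carrying the TLX1 transgene by genotype, were also compared directly, and 3 of 7 members were called against 62.1% of all probe sets. Lyl1 rose by 0.86 ± 0.30 in crossed over TLX1 tumours (adjusted p = 0.0129), a call lost without TLX1 replicate 3, whose Lyl1 of 8.84 is the lowest of the group (0.65, adjusted p = 0.0606). Lmo4 rose by 1.07 ± 0.43 (adjusted p = 0.0308). It read 9.49, 11.05 and 11.91 at the lowest, median and highest crossed tumour, against 8.44, 9.81 and 10.88 in TLX1 tumours. The groups overlap, and the Lmo4 call was lost without any of crossed replicates 1, 2 and 3 or TLX1 replicates 2, 3 and 4 (adjusted p = 0.0574 to 0.113). Tal1 fell by 0.53 (adjusted p = 9.5e-05). All probe sets together had a median difference of -0.15 here, and the Tal1 call was lost with quantile normalization (-0.14, adjusted p = 0.282) and with centring (-0.16, adjusted p = 0.163). Crossed and TLX1 arrays lie in different sets, so set and background cannot be told apart in this pair.

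Lmo2 was higher in crossed tumours, at 8.87 at the lowest, 9.29 at the median and 11.71 at the highest. The difference from the other backgrounds was 0.91 ± 0.25 (adjusted p = 0.00174). It was 0.49 (adjusted p = 0.0456) without replicate 1, the array of high myeloid markers, on which Lmo2 was 11.71 while the other 5 crossed arrays read 8.87 to 9.45. Of the 9 myeloid markers, 4 rose and 1 fell in crossed tumours. In TLX1 tumours Lmo2 read 8.56 to 9.34 and did not pass (0.23). Tal1 fell by 0.50 in crossed tumours (adjusted p = 2.88e-06), where the median of all probe sets was -0.16. The Tal1 difference was -0.21 with quantile normalization and -0.20 with centring, and both kept the call (adjusted p = 0.0241 and 0.0242). Of the 11 TAL1 and LMO targets, 8 fell and 1 rose in crossed tumours, against 46.0% lower and 20.8% higher of all probe sets, with a median of -0.61. Kit, a stem cell factor receptor, fell by 1.06 (3.69e-07), while Nfe2 rose by 1.12 (0.000429). In TLX1 tumours 4 of the 11 rose and 2 fell, near the shares of all probe sets given above. There Kit rose by 1.17 (1.02e-07). Of the 9 E protein targets, 6 fell and none rose in crossed tumours, led by Rag1 (-3.10, 7.76e-07) and Ptcra (-2.72, 5.47e-07). With them 4 of 8 T cell, 5 of 6 erythroid, 4 of 6 B cell and 4 of 5 megakaryocyte markers fell and none rose, and of 8 early progenitor markers 5 fell and 1 rose. The part of these markers in the counts was not tested.

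In p53 knockout tumours 4 of 7 members were called, against 46.0% of all probe sets, and 3 of the 4 rested on replicate 2. Lmo2 read 8.83, 11.51 and 8.84 in replicates 1, 2 and 3. Hhex read 8.12, 9.36 and 8.13, and Tal1 read 8.16, 8.97 and 7.89. Replicate 2 is the highest of the group in each, and its Tal1 is the highest of all 53 arrays. The differences were 1.05 for Lmo2 (adjusted p = 0.0126), 0.52 for Hhex (0.0425) and 0.29 for Tal1 (0.044). Without replicate 2 they were 0.15 (0.784), 0.10 (0.784) and -0.026 (0.897). The Lmo1 difference of -0.95 (0.000685) was -1.12 (0.00193) without it, so that 1 of 7 members was called, against 27.1% of all probe sets. The Lmo1 reference mean holds the LMO1 arrays. With those left out and replicate 2 kept, the Lmo1 call was lost (limma, adjusted p = 0.342). Lyl1, at 8.75, 10.16 and 8.02, did not pass with all 3 arrays (0.56, 0.142) or without replicate 2 (-0.034, 0.955). Lmo4 read 8.84 on replicate 2, and 11.89 and 10.48 on replicates 1 and 3. Neither Lmo4 (0.20 with all 3 arrays and 0.98 without replicate 2) nor Ldb1 (0.20 and 0.48) passed.

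**Figure D4:**
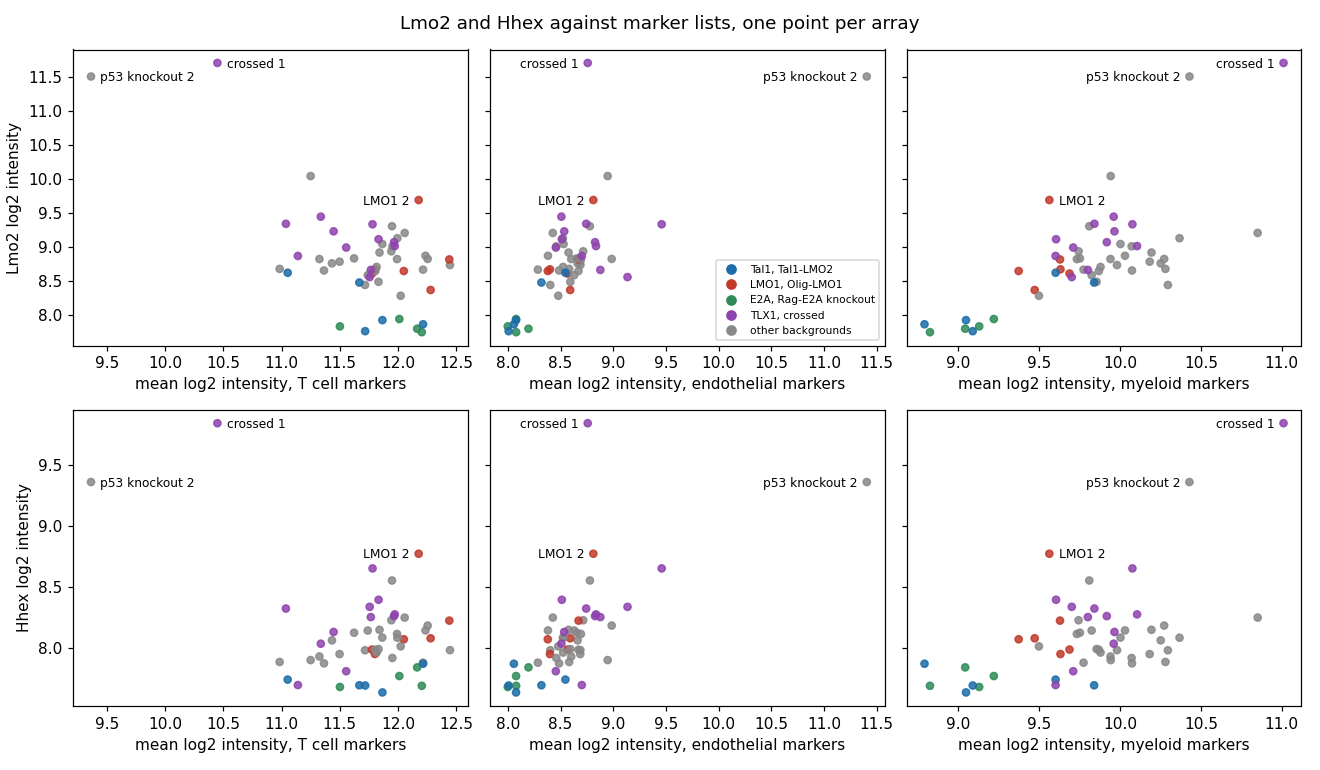
Lmo2 (top row) and Hhex (bottom row, log2 intensity) against the mean log2 intensity of T cell, endothelial and myeloid marker lists, 1 point per array. p53 knockout replicate 2 lies far right on the endothelial axis (11.41) and crossed replicate 1 at the end of the myeloid axis (11.01). Both are high in Lmo2 (11.51 and 11.71) and low in T cell markers.

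Some arrays were high in Lmo2, Hhex and Lyl1 together. Crossed replicate 1 read 11.71, 9.84 and 11.55 for the 3 genes, the highest of all arrays in each. LMO1 replicate 2 read 9.69, 8.77 and 9.02, the highest of its background in each, and it had the second highest mean of 6 B cell markers (9.71). TLX1 replicate 5 read 9.34, 8.65 and 10.02 and had the second highest endothelial mean (9.46). Ikaros plastic replicate 2 was high in Lmo2 only, where its 10.04 is the third highest of all arrays, and it read 7.90 for Hhex and 8.22 for Lyl1, both below the medians of all arrays (8.04 and 8.28). Over the 41 arrays outside the TLX1 and crossed backgrounds, Lmo2 and Hhex had a Pearson correlation of 0.83, Lyl1 and Hhex of 0.73 and Lyl1 and Lmo2 of 0.71. These points share backgrounds and control levels and include p53 knockout replicate 2, so the correlations are descriptions only.

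Ldb1 had the narrowest span of background means, while its SD over the 53 arrays (0.34) was above that of Tal1 (0.31). Its background means lay between 9.98 in Ikaros plastic and 10.66 in NUP98-HOXD13 tumours. It fell in Cdkn2a knockout tumours, at 9.72 at the lowest, 9.98 at the median and 10.23 at the highest of 9 arrays (difference -0.36 ± 0.11, adjusted p = 0.00494), inside the range of the other 44 arrays. That comparison called 3 of 7 members against 52.0% of all probe sets. Tal1 was 0.26 higher there (adjusted p = 0.00258), which was lost with quantile normalization (0.222) or centring (0.135). In Cdkn2a knockout tumours 4 of 9 myeloid, 2 of 6 erythroid and 2 of 6 B cell markers rose with none lower. There 3 of 8 T cell and 1 of 8 endothelial markers fell with none higher. Of 8 early progenitor markers 2 rose and 2 fell, and of 5 megakaryocyte markers 2 rose and 1 fell. The part of these markers in the result was not tested. In beta-catenin tumours, where 1 of 7 members and 39.3% of all probe sets were called, Tal1 rose by 0.52 ± 0.12 (adjusted p = 0.000529), with 8.5, 8.58 and 8.59 below the median of their arrays. With quantile normalization it was 0.31 (adjusted p = 0.0294). In beta-catenin tumours 6 of 6 B cell, 4 of 6 erythroid and 5 of 11 TAL1 and LMO target genes rose with none lower. Of other markers 2 of 9 myeloid, 2 of 8 early progenitor, 1 of 5 megakaryocyte and 1 of 8 T cell rose. Only 1 of 8 endothelial markers fell. The part of these markers in the Tal1 result was not tested. NUP98-HOXD13 tumours had 1 of 7 called (Lmo1, lost without the LMO1 arrays) against 3.56%. Of 7 members none was called in Pokemon (3.17% of all probe sets), ThPOK (28.4%) or Ikaros plastic tumours (32.2%). LMO1 and Olig-LMO1 tumours each had 1 of 7, Lmo1, against 17.9% and 16.8%.

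Lmo4 varied most within backgrounds. Its SD was 1.52 in p53 knockout (n = 3), 1.17 in E2A knockout (n = 2) and 1.10 in Tal1-LMO2 tumours (n = 3), against a span of 2.26 between background means. Rag-E2A knockout tumours were highest, at 11.71 and 11.01, and Tal1 tumours lowest, at 9.44 and 8.75. Neither background differed from the others past the threshold, and all neighbours in the order overlap.

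Genes of like pattern were searched among 8990 genes over the same 41 arrays by Pearson correlation. For Lmo2 they were Anxa3 (0.90), Tmem51 (0.90) and Mgll (0.89), with correlations of 0.80, 0.79 and 0.76 without p53 knockout replicate 2 and Ikaros plastic replicate 2. For Hhex they were Des (0.87), Plvap (0.84) and Csf2rb2 (0.82), and for Lyl1 Mapk12 (0.80), Zbtb20 (0.78) and Kdr (0.77). Without p53 knockout replicate 2 and LMO1 replicate 2, Kdr correlated with Lyl1 at 0.52. For Tal1 they were Hey1 (0.93), Aplp2 (0.92) and Bok (0.92), in a gene that is below the array median on every array. Lmo4 had Ppp1r21 (0.64), Ptpn22 (0.63) and Arhgap1 (0.58), and Ldb1 had Pstpip1 (0.79), Arhgap1 (0.70) and Csnk1g2 (0.70).

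The gene most like Lmo1 was Gh, growth hormone (0.90), followed by Rc3h2 (0.75) and Hivep1 (0.72). That Gh probe set, 1 of 4, read 8.60 to 9.82 on the 6 LMO1 and Olig-LMO1 arrays and 7.74 to 8.48 on the other 47. The arrays do not overlap, but this probe set was picked for its correlation with Lmo1, so the separation is not independent of that choice. The other 3 Gh probe sets did not follow it, with medians of 7.26, 7.62 and 7.47 on the 6 arrays against 7.32, 7.93 and 7.74 on the rest.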

How the data were processed

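RNA was hybridized to 1 oligonucleotide array per sample, per the labels. The authors deposited linear intensity values of 22690 probe sets. How these were normalized (not given in the sources used here) can change overall level differences. The number of arrays limits the precision.

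All 53 columns were converted to log2. After removal of 64 control probe sets, 22626 were tested with limma 3.58.1 (lmFit, eBayes, R 4.3.3) in 1 model of 15 backgrounds, with 23 contrasts. The platform's annotation pairs 20380 probe sets with 1 symbol, 691 with several and 1555 with none. Lists use each gene's probe set of highest mean. No 2 arrays were copies (highest correlation 0.9879).

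The members, lists and tests were chosen with earlier results of these data known. Named genes are the members, list genes, and the 3 genes of highest correlation with each member among genes whose probe set exceeded the median on 3 or more arrays.

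The fit was tested on simulated data of 22626 probe sets with 200 changed. Recovery of a log2 change of 1 was 94% in the E2A-deficient comparison (4 arrays), 92% in LMO1 (3) and 82% in Tal1 (2), and 96.5% in TLX1 (6). A change of 0.5 was recovered in 66.5%, 52.5%, 40% and 75%, in that order. In Tal1, 10.1% of the calls at 0.5 were false. Alternatives covered filters, normalization, eBayes settings, array sets, control levels, the beta-actin ratio, a replicate block and left-out arrays. Python 3.11.15 with NumPy 2.4.6, pandas 2.3.3 and Matplotlib 3.10.9 was used for the rest.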

Additional observations from a re-analysis of the deposited data

Results flagged for a closer look

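Stray arrays were looked for in the 3 backgrounds of 4 to 10 arrays with Dixon's criterion, which chance meets in about 1 of 20 groups. Of 21 gene and background groups, 4 had one. In crossed tumours replicate 1 was far above the other 5 in Lmo2 (11.71) and in Hhex (9.84). In Cdkn2a knockout tumours replicate 8, the only one titled with Pim1 and Ccnd3, stood above the other 8 in Lmo4 (11.01). In TLX1 tumours replicate 5 stood above the other 5 in Hhex (8.65). Myeloid markers were highest of all arrays on crossed replicate 1, and endothelial markers second highest on TLX1 replicate 5. Their part in these values was not tested.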

How the results depend on the processing

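Over the 15 backgrounds 19 member calls were made, over the 4 pooled comparisons 5 and over the 4 pairs 4. With array set as a block and crossed arrays left out, the backgrounds gave 11 calls and the pairs 2, with 1 comparison fewer in each. Without crossed arrays, or without crossed and TLX1 arrays, the pairs gave 2. The pooled calls were 9 in the largest array set alone, with hybridization control set as a block and with its level as a covariate. Without LMO1 arrays, the backgrounds gave 11 and the pooled comparisons 1, over 13 and 2 comparisons. Leaving out single arrays gave 17 to 20 calls in the backgrounds, 4 to 7 in the pooled comparisons and 2 to 5 in the pairs (2 without TLX1 replicate 3). A replicate block gave 18, 5 and 4 calls. Same-numbered arrays of different backgrounds had a median correlation of deviations of -0.01 over 216 pairs, so numbers do not pair arrays.

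Of 28 called results, 13 kept their call and direction under each of the other settings that could be run, 18 without each single array, and 11 under both. Lmo1 in the LMO1 backgrounds, Lyl1, Lmo1, Lmo2 and Tal1 in crossed tumours, Tal1 in beta-catenin and Ldb1 in Cdkn2a knockout tumours were among these 11. The crossed results could be run under only 9 or 10 of the 15 settings. Array set as a block was not among them, because the crossed arrays form their own set. Signs turned for Tal1 in p53 knockout tumours with array set as a block (-0.16), in the largest array set (-0.20), with the block and replicate 2 left out (-0.19) and without replicate 2 (-0.026; -0.026 to 0.51 over left-out arrays), and for Lmo1 in Cdkn2a knockout tumours without the LMO1 arrays (0.11). Tal1 in p53 tumours was also lost without E2A knockout replicate 1, Pokemon replicate 1 or Rag-E2A knockout replicate 4. Lmo1 in Tal1 tumours was lost without any of 38 single arrays, and Lmo1 in NUP98-HOXD13 and in Tal1-LMO2 tumours without any of their own 3. Other causes were not tested. Of 9 named results that did not pass, 6 passed under at least 1 setting, among them Lmo2 in Tal1-LMO2 tumours with hybridization set as a block (-1.30, adjusted p = 0.0234; 0.0132 to 0.421 over its alternatives). The hybridization, LMO1 and endothelial-array settings were added after seeing the data. Tal1 was above the array median on 0 of 53 arrays and Hhex on 2, which limits what could be detected.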
